A study of Mus musculus with 24 samples.

Results

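The 12 libraries described here came from mpkCCD cells exposed to dDAVP for 3, 6, 12 or 24 h, with 3 libraries at each time, out of 24 libraries in the series. They were chosen by their treatment label, and change over time was followed within them. The other 12 libraries received vehicle at the same 4 times and are used only to show where the course under dDAVP differed. mpkCCD is a mouse cortical collecting duct line, labelled as wild type, strain C57BL/6, passage 10-11. All cells of both treatments had been kept on permeable filters for 6 days and in minimum medium for 24 h, and the agent or vehicle was then given on the basolateral side. Total RNA was turned into cDNA with a SMART-Seq HT kit and sequenced from Nextera libraries. The model is a cultured line, so it holds neither the neighbouring cell types nor the blood supply of the duct. Whether the 3 libraries of a group came from separate cultures is not stated, so a p-value here speaks only of library-to-library spread, possibly technical. In bulk RNA, fewer cells expressing a gene and less RNA of it per cell cannot be told apart.

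dDAVP is a synthetic form of the hormone vasopressin that acts on the V2 receptor, a Gs-coupled receptor of the basolateral membrane of collecting duct principal cells. The receptor raises cAMP, which activates protein kinase A, and the kinase phosphorylates the water channel aquaporin-2 and transcription factors of the CREB family. In principal cells this sends aquaporin-2 to the apical membrane within minutes and raises transcription of its gene over hours. CREB also switches on genes of its own restraint, such as phosphodiesterases and the repressor form of Crem.

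Depth was 18.89 to 27.64 M estimated counts per dDAVP library. Of 12 principal cell markers 11 had a mean of at least 1 CPM, the count scaled to library size, and the potassium channel gene Kcnj1 did not. Of those that passed, Scnn1b (0.496 to 1.73 CPM) and Aqp4 (0.543 to 1.46) were near that bar. All 7 epithelial markers passed. Of markers of other cells, 1 of 6 passed for intercalated cells (Atp6v1b1, 7.20 to 21.6 CPM), 2 of 5 for proximal tubule (Lrp2 highest, at 40.1 to 59.2 CPM), 0 of 3 for thick ascending limb, 3 of 5 for fibroblasts, 2 of 4 for endothelium and 4 of 5 for leukocytes (Csf1r highest, at 19.7 to 30.9 CPM). For olfactory neurons 3 of 5 passed (Adcy3 highest, at 3.34 to 6.03 CPM). The bar of 1 CPM alone therefore did not set principal cells apart from these types. Cldn16, Umod, Foxi1 and the olfactory gene Cnga2 were at 0 in at least 1 library. The summed principal cell markers ran from 467 to 486 CPM at 3 h, 488 to 568 at 6 h, 524 to 540 at 12 h and 604 to 634 at 24 h. The summed endothelial markers ran from 6.78 to 16.0, 2.17 to 6.33, 6.42 to 8.26 and 3.12 to 6.10 CPM at the same times, fibroblast markers from 4.73 to 9.41, 2.21 to 5.22, 5.61 to 6.31 and 3.02 to 4.20 CPM, and leukocyte markers from 35.2 to 35.5, 27.9 to 30.3, 36.7 to 41.9 and 35.8 to 41.4 CPM. The part of these markers in the results was not tested.

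A pair of library-level measures moved with time in the treated cells and bear on every result. The first is the share of counts assigned to 1459 protein-coding olfactory (Olfr) and vomeronasal (Vmn) receptor genes. Under dDAVP it was 0.374% ± 0.121 (SD, n = 3) at 3 h, 0.196% ± 0.0727 at 6 h, 0.335% ± 0.0525 at 12 h and 0.201% ± 0.0442 at 24 h. The 4 times differed in log2 share by an exact permutation test (p = 0.0469 over 369600 assignments), but the call was lost on leaving out any of 10 of the 12 libraries, with p from 0.0123 to 0.0878. The share was a term of the model. The second is the mean log2 CPM of 100 genes that varied together within times in the 12 vehicle libraries, a set found after the data were examined and without the treated cells. It ran from 0.32 to 0.54 at 3 h, 0.17 to 0.55 at 6 h, -0.84 to -0.30 at 12 h and -0.92 to 0.17 at 24 h under dDAVP. All 12 h values lay below all 3 h and 6 h values, whereas the vehicle libraries ran from -0.67 to 0.46 over all times. This measure and time under dDAVP cannot be told apart at 12 h, so the main counts below are given with the share alone and again with both measures in the model. Among these 100 genes were Hnrnpd, Grk6 and Zmynd19.

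**Figure D1:**
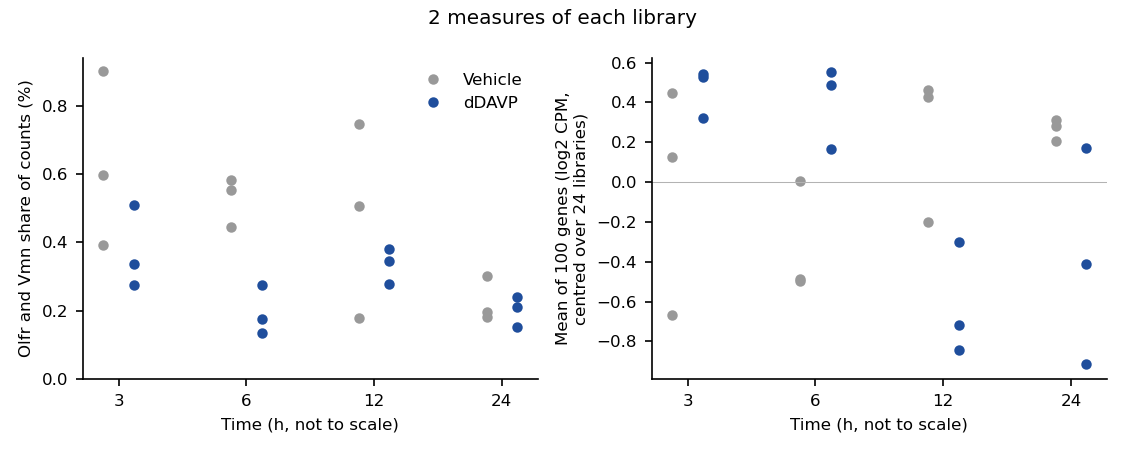
Library measures by time of exposure (h, not to scale), 1 point per library, vehicle in grey and dDAVP in blue. The first panel plots the receptor gene share of counts (%) and the second the mean log2 CPM of the 100-gene set, in which the 3 dDAVP libraries at 12 h lie below all 6 at 3 and 6 h.

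Of 12107 genes with a mean of at least 5 CPM at a time under dDAVP, 2904 (24.0%) changed over the 4 times. The test was edgeR's quasi-likelihood F test with Benjamini-Hochberg adjustment (BH) over all 12107 genes, and a gene is called changed where its adjusted p was under 0.05. Of the genes tested 10980 reached 5 CPM at all 4 times and 328 at 1 time only. For genes under 5 CPM at some times, such as Ramp3, Rasl11a and Adm, the filter is not independent of the course. Without the receptor share 3747 genes (30.9%) were called, of which 2563 were also called with it, and with both measures 671 (5.54%), of which 637 were. At 6 h against 3 h a single gene was called (0.00826%), and it was Aqp2, although 757 genes had an unadjusted p under 0.05 and DESeq2 called 38. At 12 h against 3 h 2448 genes were called (20.2%), 1165 higher (9.62%) and 1283 lower (10.6%). With both measures 521 were called at 12 h (4.3%), 323 higher (2.67%) and 198 lower (1.64%). At 12 h against 6 h 1314 were called (10.9%), and at 24 h against 12 h 142 (1.17%), 65 higher (0.537%) and 77 lower (0.636%). From 3 to 24 h 665 genes were called (5.49%): 398 rose (3.29%) and 267 fell (2.21%). With both measures 314 were (2.59%), of which 237 rose (1.96%) and 77 fell (0.636%).

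Genes were sorted by course. A gene was rising when 24 h was called above 3 h and neither 6 nor 12 h was called above 24 h or below 3 h, and falling in the mirror case. A gene was peaking when its highest time was 6 or 12 h and was called above both 3 and 24 h, with a trough as the mirror. By this rule 377 genes rose (3.11%), 259 fell (2.14%), 61 peaked (0.504%) and 34 had a trough (0.281%). The other 2173 called genes (17.9%) met none of these, and 641 of them were called higher and 853 lower at 12 h than at 3 h. Every peak and every trough stood at 12 h. With both measures in the model 142 rising genes kept their class (37.7%), as did 57 falling (22.0%), 43 peaking (70.5%) and 8 trough genes (23.5%). The fit with both measures placed 179 genes (1.48%) in the rising class, 64 (0.529%) in the falling, 60 (0.496%) in the peaking and 16 (0.132%) in the trough class. Without any covariate these were 931 (7.69%), 1076 (8.89%), 61 (0.504%) and 65 (0.537%). Of the falling genes 13 were among the 100 that define the second measure. For those 13 the fit with both measures adjusts a gene partly for its own level and cannot decide its class. Without replicate 2 at 3 h only 73 genes rose and 31 fell.

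**Figure D2:**
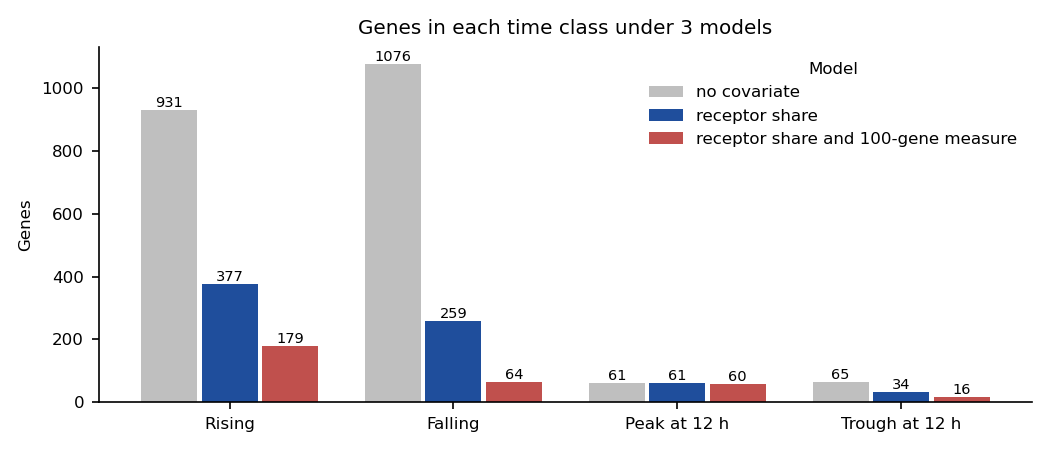
Genes in each course class (count) under 3 models: no covariate, the receptor share, and both library measures. The 61 peaking genes under the share model stay near that number in the other models, whereas falling genes run from 1076 with no covariate to 64 with both measures.

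The genes that rose with continued dDAVP included the receptor for the hormone, its main target and several enzymes. Avpr2, the V2 receptor, was at 26.5, 23.3 and 27.4 CPM at 3 h, followed by 33.4, 37.3 and 38.0 at 6 h, by 50.4, 47.6 and 49.3 at 12 h and by 60.5, 59.2 and 55.3 at 24 h. No library of a later time overlapped one of an earlier time. It rose by 1.23 (SE 0.0997) on the log2 scale from 3 to 24 h (edgeR adjusted p = 1.99e-05). Vehicle cells also rose, by 0.46, and the change under dDAVP was larger by 0.68 (SE 0.104, edgeR adjusted p = 0.0013). At 3 h Avpr2 differed from vehicle by -0.57 (edgeR, adjusted p = 7.04e-05), and at 24 h the difference was 0.11 (adjusted p = 0.473). With both measures the gene stayed in the rising class, at 1.35.

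Aqp2, the regulated water channel of the principal cell, followed a different path. It stood at 123, 117 and 118 CPM at 3 h, followed by 163, 150 and 216 at 6 h, by 127, 137 and 142 at 12 h and by 208, 192 and 219 at 24 h. The 12 h libraries lay above those of 3 h and below those of 6 and 24 h, so the measured level went up, down and up again. The steps were 0.81 from 3 to 6 h (SE 0.109, edgeR adjusted p = 0.0455), -0.59 from 6 to 12 h (adjusted p = 0.00295) and 0.81 from 12 to 24 h (SE 0.0999, adjusted p = 0.000866). The first of these steps rests on a fragile call, because leaving out a library gave 0 to 2 genes at 6 h against 3 h. No gene, and so not Aqp2, was called without 3 h replicate 1 or 3 or 6 h replicate 1 or 2. The same held without 12 h replicate 2 or any 24 h library. Without 3 h replicate 2 the only gene called was lower. The 12 to 24 h step of Aqp2 was called in all 12 such fits. From 3 to 24 h Aqp2 rose by 1.02 (SE 0.107, adjusted p = 0.000244). Vehicle cells held 4.07 to 8.49 CPM throughout.

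C3, the central complement component, rose by 12 h and then held. It was at 24.6, 27.1 and 27.7 CPM at 3 h, followed by 35.1, 28.3 and 36.4 at 6 h, by 57.6, 60.8 and 71.1 at 12 h and by 64.0, 65.6 and 59.6 at 24 h, against 18.2 to 26.6 in all vehicle libraries. It rose by 1.23 (SE 0.135, edgeR adjusted p = 0.000314) from 3 to 24 h, with -0.02 of that after 12 h. Under vehicle the change was -0.03, and the difference of 1.31 passed the test (edgeR adjusted p = 0.000281, and 0.000845 with both measures). Adh1, a class I alcohol dehydrogenase that also oxidises retinol, was at 5.01, 5.39 and 6.38 CPM at 3 h, followed by 3.82, 5.22 and 4.83 at 6 h, by 8.77, 9.15 and 14.3 at 12 h and by 15.1, 22.1 and 19.6 at 24 h. All 24 h libraries exceeded all earlier ones. It rose by 1.47 (SE 0.254, edgeR adjusted p = 0.00527), a call lost without replicate 2 at 3 h (adjusted p = 0.0785). Adh7, of the same enzyme family, rose by 1.11 but was not called with both measures. Inmt, an indolethylamine N-methyltransferase, did not overlap between times, with 59.2 to 66.6 CPM at 3 h, 67.5 to 78.5 at 6 h, 89.0 to 96.5 at 12 h and 116 to 138 at 24 h, and rose by 1.16 (SE 0.0861, edgeR adjusted p = 1.6e-05).

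Some rising genes started below vehicle. Ptger1, the EP1 receptor for prostaglandin E2, was at 7.02, 5.39 and 7.83 CPM at 3 h, followed by 7.06, 4.89 and 5.97 at 6 h, by 16.9, 18.2 and 20.2 at 12 h and by 18.3, 27.4 and 37.1 at 24 h. It rose by 2.21 (SE 0.305, edgeR adjusted p = 0.00133), and by 1.45 with both measures (adjusted p = 0.0161). Against vehicle it differed by -1.63 at 3 h (adjusted p = 0.000788) and by -0.06 at 24 h (adjusted p = 0.933). Scnn1g, which encodes the gamma chain of ENaC, the sodium channel of the apical membrane, was at 8.93, 5.19 and 8.83 CPM at 3 h and 15.5, 16.4 and 16.1 at 24 h, with no overlap. It rose by 1.23 (SE 0.224, edgeR adjusted p = 0.00705), differing from vehicle by -1.14 at 3 h (adjusted p = 0.000357) and -0.36 at 24 h (adjusted p = 0.269). The difference of its course from vehicle was not called (edgeR adjusted p = 0.276), and its rise was lost without replicate 2 at 3 h (adjusted p = 0.0588). Rasl11a, a small GTPase of the Ras family, rose by 0.88 (edgeR adjusted p = 0.0368) from 3.14 to 4.29 CPM at 3 h to 6.61 to 8.35 at 24 h, stayed below the 12.6 to 17.4 CPM of vehicle, and was not called with both measures. The call of Rasl11a was also lost in 5 of 12 fits that left out a library (edgeR adjusted p up to 0.249).

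**Figure D3:**
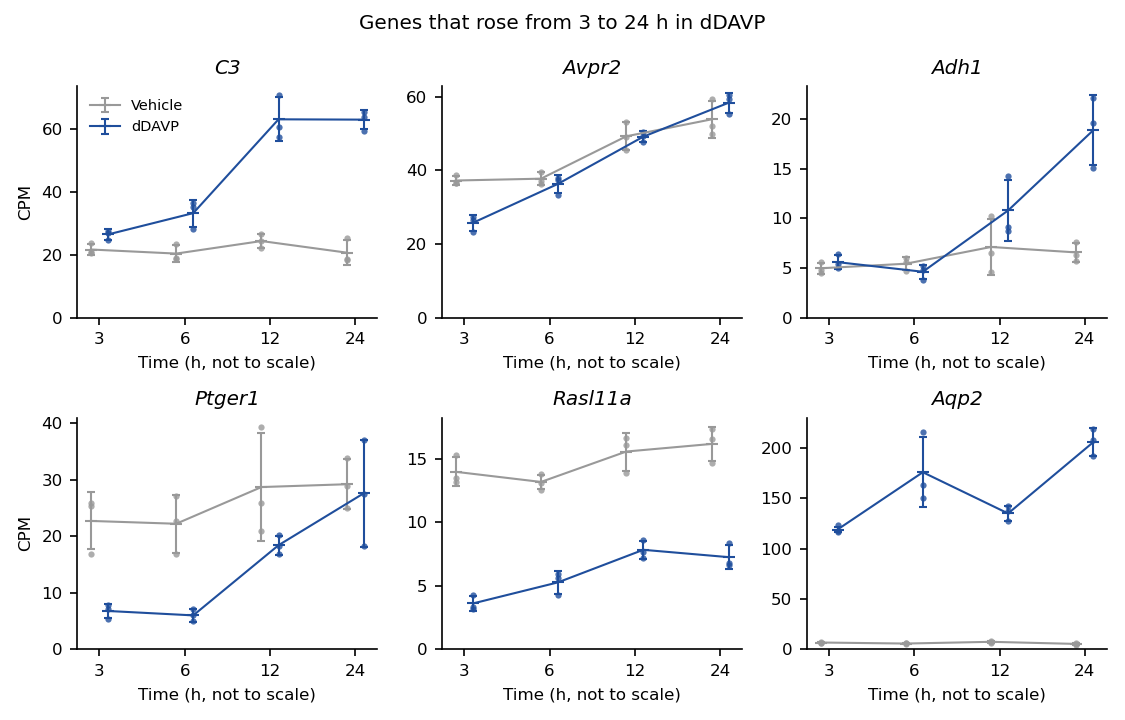
Level (CPM) by time of dDAVP (h, not to scale) for 6 rising genes, 1 point per library with the mean ± SD of each time. Avpr2 climbs at every time, Aqp2 dips at 12 h between its rises, and C3 stays level between 12 and 24 h.

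The remaining rising genes with the largest changes were of mixed function. Selenbp1, a selenium-binding protein, went from 35.6, 35.7 and 38.8 CPM at 3 h to 84.5, 81.5 and 76.3 at 24 h (log2 1.11, edgeR adjusted p = 1.66e-05). Vehicle cells rose by 0.75, and the difference of 0.35 was not called (edgeR adjusted p = 0.0932). Grin1, which encodes the obligate subunit of NMDA receptors, was higher still at 12 h (21.4 to 23.6 CPM) than at 24 h (11.3 to 18.1) or 3 h (3.89 to 5.30), and it was placed among peaking genes with both measures. Ifit3, an interferon-induced gene, rose by 1.24 and Malrd1, an intestinal membrane protein gene, by 1.07, and both stayed in the class with both measures. Krt23, an acidic keratin, rose by 1.09 and Tgm2, a transglutaminase, by 0.67, and neither was called with both measures. Of the 377 rising genes 15 changed by at least 2-fold, so most rises were small.

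Few genes were still rising late. Of the rising genes 290 (76.9%) were already called higher at 12 h than at 3 h, against 9.62% of all genes, and 120 of the 290 also with both measures. At 24 h 20 rising genes (5.31%) were called higher than at 12 h, against 0.537% of all genes. The class rule uses the same 3, 12 and 24 h libraries, so these shares are raised by selection and are only a description. All 20 were also called with both measures, and 6 were called in every fit that left out a library: Aqp2, Inmt, Cirbp, Herpud1, Scamp5 and Txnip. Of these Cirbp, Scamp5 and Txnip were chosen after their values were seen. Txnip, a thioredoxin-binding protein whose gene responds to glucose, was at 228, 211 and 221 CPM at 3 h, followed by 260, 238 and 277 at 6 h, by 317, 317 and 299 at 12 h and by 392, 391 and 402 at 24 h. The 4 times did not overlap, and the last step was 0.46 (SE 0.0548, edgeR adjusted p = 0.00071). Cirbp, a cold-inducible RNA-binding protein, was level at 48.0 to 50.2 CPM at 12 h and reached 70.1 to 70.8 at 24 h. Vehicle cells reached 70.7 to 78.7 CPM of Cirbp at 24 h, and its course was not called different (edgeR adjusted p = 0.809). The step from 12 to 24 h had the same sign in vehicle for 18 of the 20 genes and was called there for 5. Among those called in vehicle were Cirbp (0.41, edgeR adjusted p = 0.00153) and Herpud1 (0.40, adjusted p = 0.00129). The vehicle step was -0.34 for Aqp2 and -0.06 for Inmt, neither of which passed the test.

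The genes that fell included targets and partners of the cAMP pathway. Nr4a2, an orphan nuclear receptor and immediate early gene, was at 29.1, 30.7 and 28 CPM at 3 h, followed by 13.5, 16.1 and 17.3 at 6 h, by 12.0, 10.1 and 12.2 at 12 h and by 10.6, 9.87 and 8.47 at 24 h. Each 3 h library exceeded every later one. It fell by 1.60 (SE 0.154, edgeR adjusted p = 0.000135) from 3 to 24 h, while vehicle cells differed by -0.26 (adjusted p = 0.416), and the difference of -1.28 was called (adjusted p = 0.000734, and 0.0145 with both measures). It remained above vehicle at 24 h by 0.73 (adjusted p = 0.00344).

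Ramp3, a single-pass partner that alters the ligand choice of calcitonin family receptors, held its level to 6 h and then dropped. It was at 7.61, 7.45 and 7.23 CPM at 3 h, followed by 6.51, 6.49 and 7.87 at 6 h, by 1.30, 1.31 and 1.60 at 12 h and by 1.34, 2.22 and 1.39 at 24 h, against 0.489 to 1.20 in vehicle. The early and late times did not overlap. It fell by 2.18 (SE 0.238, edgeR adjusted p = 0.000314), by 2.04 with both measures, and the difference from vehicle was -2.44 (adjusted p = 0.000976). Crem, the cAMP-responsive modulator, was at 12.4, 14.9 and 13.9 CPM at 3 h, followed by 11.5, 11.9 and 10.9 at 6 h, by 9.50, 9.83 and 9.10 at 12 h and by 6.83, 9.43 and 7.38 at 24 h. Its levels did not overlap up to 12 h, and replicate 2 at 24 h lay among the 12 h values. It fell by 1.01 (SE 0.143, edgeR adjusted p = 0.00145), and at 24 h it was no longer called above vehicle (edgeR, log2 difference 0.31, adjusted p = 0.192). The difference of its course from vehicle was not called (adjusted p = 0.153).

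Akap12, a scaffold that anchors protein kinase A near the membrane, was at 269, 275 and 250 CPM at 3 h, followed by 211, 209 and 229 at 6 h, by 164, 175 and 148 at 12 h and by 154, 145 and 161 at 24 h. It was lower at 6 h than at 3 h in all libraries and lower again at 12 h, then level. It fell by 0.68 (SE 0.0798, edgeR adjusted p = 0.000513) in the fit of the dDAVP libraries. In the separate fit of all 24 libraries its change differed from that in vehicle by -0.60 (edgeR adjusted p = 0.000976). Arg2, the mitochondrial arginase, was at 21.4, 18.5 and 21.3 CPM at 3 h and at 7.99, 10.6 and 8.21 at 24 h, a fall by 1.19 (SE 0.166, edgeR adjusted p = 0.00138) with no overlap. It stayed above vehicle at 24 h by 1.14 (adjusted p = 0.00035). B3gnt7, a glycosyltransferase of keratan sulphate synthesis, was at 38.3 to 43.5 CPM at 3 h, 23.8 to 27.7 at 6 h, 32.4 to 35.7 at 12 h and 27.5 to 32.4 at 24 h. Its fall of 0.41 (log2 change -0.41, edgeR adjusted p = 0.0431) was lost in 8 of 12 fits without a library, with adjusted p of 0.0325 to 0.287. Sik1, a kinase that restrains CREB coactivators, fell by 0.46 (edgeR adjusted p = 0.0411) from 29.4 to 29.7 CPM at 3 h to 19.9 to 22.3 at 24 h, and was not called with both measures (adjusted p = 0.419). The call of Sik1 was also lost in 5 of 12 fits without a library (edgeR adjusted p up to 0.221).

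**Figure D4:**
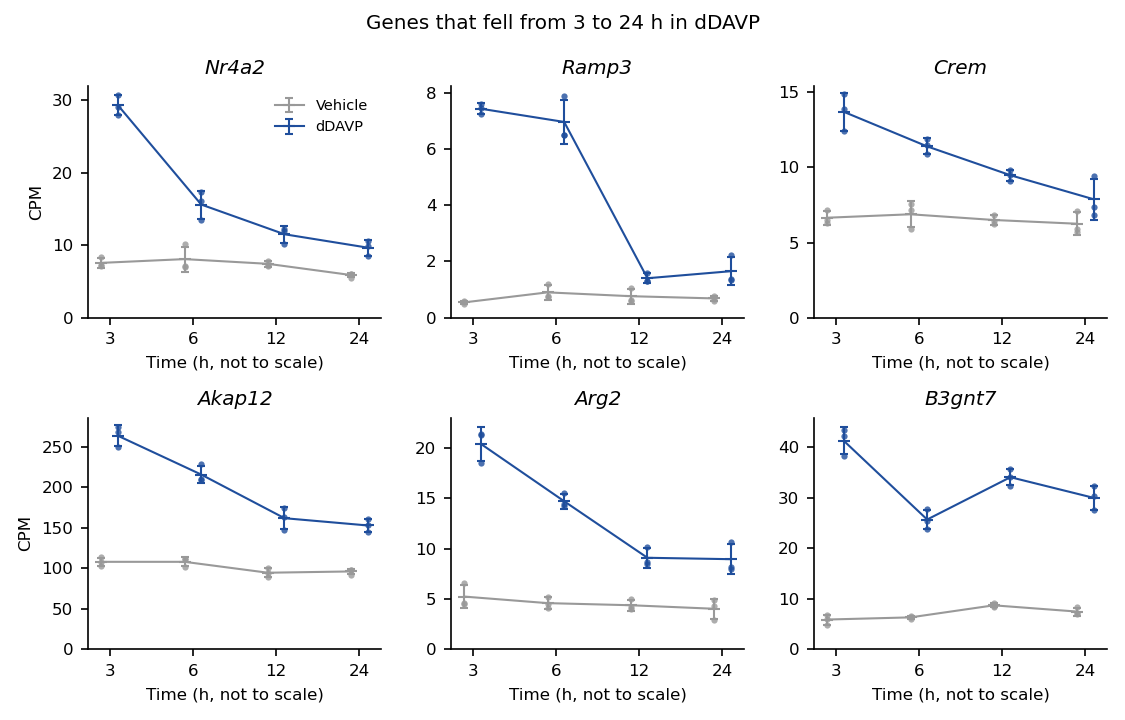
Level (CPM) by time of dDAVP (h, not to scale) for 6 falling genes, 1 point per library with the mean ± SD of each time. Nr4a2 is lower from 6 h on, whereas Ramp3 keeps its 3 h level at 6 h and drops by 12 h.

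Fosl1, a Fos-family transcription factor, fell by 1.52 (edgeR adjusted p = 0.00145), from 26.9 to 30.6 CPM at 3 h and 33.7 to 46.8 at 6 h to 8.02 to 10.8 at 24 h. Vehicle cells fell by 1.43 (edgeR adjusted p = 0.0001), and the difference between treatments was -0.22 (adjusted p = 0.762). The other named falling genes were Zmynd19, Fst, Hnrnpd, Grk6, Sav1, Slain1, Crebzf and Otud1, with log2 changes of -1.12 to -1.59. Zmynd19, Hnrnpd and Grk6 are among the 100 genes of the second measure. The fit with both measures adjusts them partly for their own level and so cannot decide on them. None of the 8 falling genes was called in that fit. Hnrnpd, an RNA-binding protein that binds AU-rich messages, shows the spread behind them: its 3 libraries were at 107, 120 and 77.0 CPM at 3 h, followed by 58.5, 111 and 119 at 6 h, by 30.4, 27.9 and 37.4 at 12 h and by 53.3, 35.4 and 30.5 at 24 h, and vehicle libraries ran from 29.5 to 109 CPM.

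Late falls were as rare as late rises: 11 of 259 falling genes (4.25%) were called lower at 24 h than at 12 h, against 0.636% of all genes. The rule of this class uses the same libraries too, so its share is also raised by selection. All 11 were called with both measures too, and 4 were called in every fit without a library, namely Ankrd37, Bhlhe40, Ier3 and Tfrc, all chosen after their values were seen. Ankrd37, a hypoxia-inducible gene, was at 36.0, 33.0 and 38.3 CPM at 12 h and 12.5, 19.7 and 11.5 at 24 h, a step of -1.88 (SE 0.164, edgeR adjusted p = 0.000154). Tfrc, the transferrin receptor, went from 139 to 142 CPM at 12 h to 94.5 to 111 at 24 h (log2 -0.61, edgeR adjusted p = 0.00106). The step had the same sign in vehicle for all 11 and was called there for Tfrc, at -0.46.

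Among the 61 peaking genes were many enzymes of glycolysis and genes known to answer low oxygen. Of 24 genes tested on the glycolysis and hypoxia list, 23 changed over time and 22 were called higher at 12 h than at 3 h. On the same list 18 were called lower at 24 h than at 12 h and 17 were in the peaking class. Over all genes 24.0% changed, 9.62% were called higher at 12 h, 0.636% lower at 24 h than at 12 h, and 0.504% peaked. The list's median log2 change from 3 to 12 h was 0.91, where that of all genes tested was 0.00. With both measures 23 of 24 changed and 18 peaked (5.54% and 0.496% of all genes). This list was written with earlier results of these data known.

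Bnip3, a mitochondrial protein of mitophagy, was at 35.8, 55.5 and 53.5 CPM at 3 h, followed by 42.9, 95 and 58.9 at 6 h, by 360, 313 and 331 at 12 h and by 171, 177 and 135 at 24 h. The 12 h libraries stood far above all others. It rose by 2.76 (SE 0.187, edgeR adjusted p = 6.79e-07) from 3 to 12 h and then fell by 1.47 (adjusted p = 0.00476). Pgk1, phosphoglycerate kinase, which makes ATP in glycolysis, was at 327, 390 and 356 CPM at 3 h, followed by 409, 431 and 394 at 6 h, by 757, 733 and 815 at 12 h and by 637, 660 and 585 at 24 h. Its level at 12 h was above all others and its 24 h level above 3 and 6 h, with log2 changes of 1.08 to 12 h (edgeR adjusted p = 3.26e-08) and -0.44 after it (adjusted p = 0.00178). Egln3, an oxygen-sensing prolyl hydroxylase that marks HIF-1alpha for destruction, was at 28.9, 48.0 and 41.4 CPM at 3 h, followed by 108, 83.4 and 110 at 12 h and by 26.4, 35.1 and 28.5 at 24 h. It rose by 1.31 to 12 h and fell by 2.08 after it (edgeR adjusted p = 0.000109 and 0.000154).

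Other named peaks were Eno2, the neuronal enolase (log2 1.57 from 3 to 12 h), Egln1 (1.29), Gys1, the glycogen synthase of muscle (1.18), and the collagen prolyl hydroxylase subunits P4ha1 (1.04) and P4ha2 (1.52). All 5 returned to levels not called different from 3 h at 24 h. Adm, the vasodilator peptide adrenomedullin, peaked at 7.84 to 8.61 CPM and ended at 1.61 to 2.66, below the 2.99 to 4.70 of 3 h (log2 -1.43, edgeR adjusted p = 0.00713). Its 3 and 24 h libraries lay under the filter of 5 CPM. Adm was therefore tested only because it was higher at another time, and its peak is a description. Among the list's enzymes Hk1, Pfkm and Pkm rose without a called drop after 12 h, in both models.

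Most of these genes were also called higher at 12 h in vehicle. There 23 of the 24 list genes were called higher at 12 h than at 3 h (7.06% of all genes; 8.03% were lower), with a median of 0.85, and 9 were called lower at 24 h than at 12 h (0.33% of all genes, as for higher). The median change from 12 to 24 h was -0.35 in vehicle and -0.61 under dDAVP. Bnip3 rose by 2.79 in vehicle, Pgk1 by 0.93 and Egln3 by 1.36. By edgeR's test of the course against vehicle, 0 of the 61 peaking genes passed, and 17 had an unadjusted p under 0.05. A p that misses the threshold does not show equal courses. The culture schedule, which both treatments share, and dDAVP cannot be told apart within the treated libraries.

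The promoters of this group were searched for a form of the hypoxia response element in which a C follows the core, ACGTGC or GCGTGC on either strand. The RefSeq windows ran from 250 bases before to 50 after the start (build GRCm38.p6). A core followed by another letter, such as acgtga in the Pgk1 window, was not counted. A match was present in 26 of 48 peaking genes with a window (54.2%), in 14 of 23 on the glycolysis list (60.9%), in 2701 of 8889 tested genes (30.4%) and in 5360 of 32851 windows in the table (16.3%). Falling genes had it in 39.2% and rising genes in 25.6%. A gene counted when any of its windows held a match, whereas the share over the table is per window, so the measures differ. These shares were not tested. A match is a description of these letters, not a bound site or a cause. The 250 bases before the start are shown for the gene with the largest peak and for Pgk1, 5′ to 3′ on the gene's strand, with matches in capitals. That of Bnip3 is chr7:138909507-138909756 on the minus strand, with 4 matches, and that of Pgk1 is chrX:106186850-106187099 on the plus strand, with 1.
Bnip3: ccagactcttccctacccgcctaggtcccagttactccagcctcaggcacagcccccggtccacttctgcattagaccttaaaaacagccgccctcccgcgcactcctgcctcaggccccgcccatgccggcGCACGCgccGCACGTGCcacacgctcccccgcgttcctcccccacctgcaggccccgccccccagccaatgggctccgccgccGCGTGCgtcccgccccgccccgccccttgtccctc
Pgk1: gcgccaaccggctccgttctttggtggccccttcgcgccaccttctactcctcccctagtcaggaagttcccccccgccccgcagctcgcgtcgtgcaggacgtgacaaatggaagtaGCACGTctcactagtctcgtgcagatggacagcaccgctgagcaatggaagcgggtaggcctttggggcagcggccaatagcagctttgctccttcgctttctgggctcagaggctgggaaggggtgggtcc

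The trough at 12 h included many targets of ATF4, the transcription factor of the amino acid response. Of 23 tested genes on that list 21 changed, 17 were called lower at 12 h than at 3 h, 10 were called higher at 24 h than at 12 h and 9 had a trough. Over all genes 24.0% changed, 10.6% were called lower at 12 h, 0.537% higher at 24 h than at 12 h, and 0.281% had a trough. The median log2 change from 3 to 12 h was -0.31, against 0.00 for all genes. With both measures 13 of 23 changed and 4 were called lower at 12 h (5.54% and 1.64% of all genes). In vehicle 16 of 23 were called lower at 12 h (8.03% of all genes), with a median of -0.29.

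Asns, asparagine synthetase, was at 214, 216 and 214 CPM at 3 h, followed by 230, 220 and 229 at 6 h, by 150, 156 and 159 at 12 h and by 198, 199 and 184 at 24 h. The 12 h libraries were the lowest, with steps of -0.47 to 12 h (SE 0.0474, edgeR adjusted p = 2.27e-05) and 0.31 after it (adjusted p = 0.0241), and the trough held with both measures. Gdf15, a stress-induced hormone of the TGF-beta family, was at 39.7 to 40.7 CPM at 3 h, 24.7 to 25.1 at 12 h and 35.7 to 37.4 at 24 h, with no overlap (log2 -0.70 and then 0.52, edgeR adjusted p = 2.19e-05 and 0.00915). Castor2, a paralogue of the arginine sensor Castor1 of the mTORC1 pathway, dropped by 0.63 and regained 0.46 with both steps called in both models. Atf3, Slc7a5, the large neutral amino acid carrier, Sesn2, a leucine sensor, Gpt2, an alanine transaminase, and Cth, which makes cysteine, had log2 changes of -0.69 to -0.44 to 12 h, and their fall to 12 h was not called with both measures. Trib3, a pseudokinase of this response, is in the trough class with the share and in the rising class with both measures. Ppp1ccb had the deepest trough of the named genes, at -2.03, with 2.76, 7.75 and 4.79 CPM at 12 h, but it is a near copy of Ppp1cc, and its counts are uncertain because reads can be split between the copies.

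The C/EBP-ATF response element was searched as TGATGNAA on either strand. It was in 5 of 26 trough genes with a window (19.2%) and 8 of 20 such genes on the ATF4 list (40.0%). It was in 2.62% of tested genes with a window and, counted per window, in 3.97% of all windows. The 250 bases before the start are given for a gene of the trough class and for Chac1, a glutathione-degrading enzyme of the same list that was called but met no class. The window of Asns is chr6:7693210-7693459 on the minus strand and that of Chac1 is chr2:119350992-119351241 on the plus strand, with 1 match each in capitals.
Asns: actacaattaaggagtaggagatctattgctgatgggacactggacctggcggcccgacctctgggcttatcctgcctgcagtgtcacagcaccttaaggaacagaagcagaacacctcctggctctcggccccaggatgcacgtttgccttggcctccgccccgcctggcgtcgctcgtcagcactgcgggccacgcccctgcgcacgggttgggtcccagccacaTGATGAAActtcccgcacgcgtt
Chac1: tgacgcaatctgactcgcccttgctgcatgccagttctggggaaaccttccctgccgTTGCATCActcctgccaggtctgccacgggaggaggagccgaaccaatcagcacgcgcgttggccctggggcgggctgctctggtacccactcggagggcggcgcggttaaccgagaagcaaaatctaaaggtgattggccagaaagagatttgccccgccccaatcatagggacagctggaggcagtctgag
The cAMP response element TGACGTCA, which reads the same on both strands, was in 7 of 194 falling genes with a window (3.61%), 2.14% of rising and 3.71% of tested genes. No match says only that these letters are not in this window.

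Genes that make ribosomes and polyamines were lower at 12 h. Of 26 on the ribosome biogenesis list 22 changed and 21 were called lower at 12 h than at 3 h (median -0.30), while 5 changed with both measures. Over all genes 24.0% changed (5.54% with both measures), and at 12 h 9.62% were called higher and 10.6% lower. Srm, spermidine synthase, was at 83.8 ± 1.67 CPM (SD, n = 3) at 3 h, 60.8 ± 5.40 at 12 h and 62.7 ± 4.35 at 24 h, and fell by 0.39 from 3 to 24 h (edgeR adjusted p = 0.0301). It lost this call in 3 of 12 fits that left out a library (adjusted p up to 0.228) and met no class with both measures. Nop56, a nucleolar protein of snoRNA particles, went from 394 ± 14.7 to 307 ± 6.68 CPM at 12 h. In vehicle 22 of 26 were called lower at 12 h (8.03% of all genes), with a median of -0.34. Of 24 cholesterol synthesis genes 14 changed, 16 were called lower at 12 h (median -0.22) and 5 fell to 24 h, but 1 changed with both measures. Of all genes 2.21% were called lower at 24 h than at 3 h. Of 35 mitosis genes 17 changed and 16 were higher at 12 h (median 0.16), among them Mki67 at 149 ± 13.6 CPM at 3 h and 193 ± 8.52 at 12 h, and 3 changed with both measures. Of 35 DNA replication genes 5 changed (0 with both measures), with 1 called higher and 1 called lower at 12 h.

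Several clock genes were higher late, in both treatments. Of 18 tested 11 changed, 9 were called higher at 12 h than at 3 h and 0 were called lower (median 0.37). On this list 5 rose to 24 h and 8 changed with both measures. Members such as Nr1d1 (log2 -0.30) and Arntl (-0.25) were lower at 12 h without being called. Over all genes 24.0% changed (5.54% with both measures), 9.62% were called higher and 10.6% lower at 12 h, and 3.29% rose to 24 h. Per2, a repressor of the clock, was at 20.3, 19.0 and 21.6 CPM at 3 h, followed by 22.9, 21.9 and 23.9 at 6 h, by 32.5, 38.3 and 32.2 at 12 h and by 42.5, 32.5 and 38.2 at 24 h. Early and late times did not overlap, and it rose by 1.04 (edgeR adjusted p = 0.000537), with 0.84 in vehicle. Tef, an activator of clock output genes, was at 35.1 to 40.5 CPM at 3 h and 59.1 to 72.7 at 24 h, a rise of 0.83 (edgeR adjusted p = 0.000721). Per3 rose by 0.47, and Bhlhe40, a clock repressor also induced by low oxygen, fell by 0.82 (edgeR adjusted p = 0.00478). Per1, a CREB target, was at 8.34 to 9.57 CPM at 3 h and 7.60 to 9.77 at 24 h and was not called. In vehicle 7 of 18 were called higher and 2 lower at 12 h (7.06% and 8.03% of all genes). The E-box CACGTG was in 5 of 15 clock genes with a window (33.3%) and 11.9% of tested genes with a window.

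**Figure D5:**
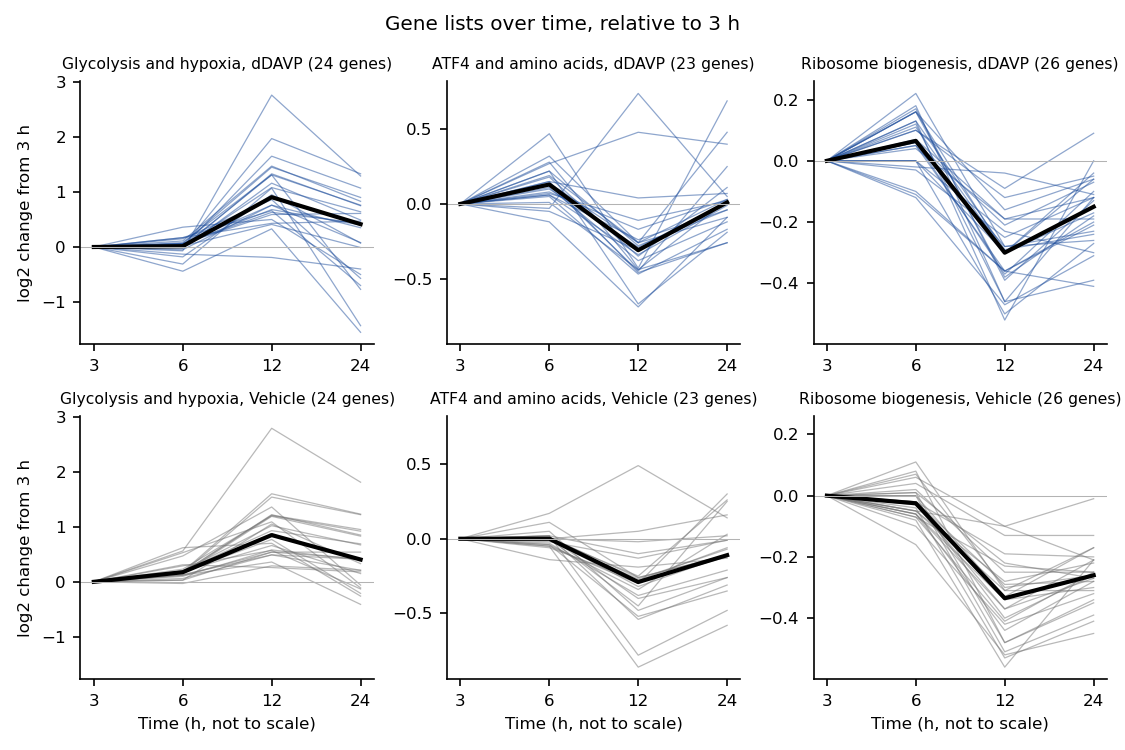
Change from 3 h (log2) by time (h, not to scale) for each gene of 3 lists, with dDAVP above and vehicle below and a thick line for the median. The median of the 24 glycolysis and hypoxia genes is highest at 12 h, and the medians of the 23 ATF4 genes and of the 26 ribosome biogenesis genes are lowest there, in both treatments; y axes differ between panels.

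Of 25 genes of cAMP turnover and protein kinase A 9 changed (3 with both measures), where 24.0% of all genes did (5.54% with both), with a median of -0.03 at 12 h and 0.01 at 24 h. These were Avpr2, which rose, Akap12 and Pde4d, which fell, and Akap1, Akap11, Gnas, Pde4c, Prkaca and Prkar2a, which met no class. Gnas, Prkaca and Prkar2a are among the 100 genes of the second measure, and none of the 3 was called with it in the model. That fit adjusts them partly for their own level, so it cannot decide whether they changed. Pde4b, a cAMP phosphodiesterase, stayed at its early level: 15.1, 14.3 and 13.8 CPM at 3 h and 13.7, 11.5 and 13.6 at 24 h, with no called change (edgeR F test adjusted p = 0.331), against 3.13 to 5.77 in vehicle. At 24 h it was above vehicle by 1.79 (edgeR adjusted p = 1.55e-08), as at 3 h (1.98), whereas Nr4a2 went from 2.01 above vehicle at 3 h to 0.73 at 24 h.

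Of 28 CREB-associated and immediate early genes 18 changed (11 with both measures): 5 fell, 2 rose and 4 had a trough. Their median was -0.22 at 12 h and -0.05 at 24 h. Over all genes 24.0% changed (5.54% with both measures), 2.14% fell, 3.11% rose and 0.281% had a trough. Jun, an AP-1 subunit, rose from 89.0 to 94.5 CPM at 3 h to 128 to 145 at 24 h (log2 0.59, edgeR adjusted p = 0.00128), as it did in vehicle. Fos, its partner, was at 24.1 to 27.3 CPM at 3 h, 36.9 to 39.9 at 6 h, 18.8 to 24.1 at 12 h and 29.4 to 33.0 at 24 h. Its 24 h level was not called against 3 h (log2 0.41, edgeR adjusted p = 0.0535), while the difference from vehicle was (0.71, adjusted p = 0.0427). Nr4a1, related to Nr4a2, was at 33.6 to 39.4 CPM at 3 h, 46.9 to 54.5 at 6 h, 25.8 to 29.7 at 12 h and 29.8 to 40.3 at 24 h (24 against 3 h, log2 0.10, edgeR adjusted p = 0.738), and it was called lower than at 3 h only at 12 h (-0.41, adjusted p = 0.0109). Of 12 dual-specificity phosphatase and feedback genes 6 changed and 7 were called lower at 12 h (median -0.30), where 10.6% of all genes were. With both measures 1 of the 12 was called over time.

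Of 12 water channel and principal cell genes 8 changed (5 with both measures), and Aqp2, Avpr2 and Scnn1g rose. Over all genes 24.0% changed (5.54% with both measures), 3.11% rose and 2.14% fell, and at 12 h 9.62% were called higher and 10.6% lower. Aqp5, a water channel encoded beside Aqp2, was at 42.1 to 47.6 CPM at 3 h and 49.4 to 64.9 at 24 h and was not called (edgeR F test adjusted p = 0.148). Scnn1a, the alpha subunit of ENaC, went from 50.4, 58.2 and 57.6 CPM at 3 h to 71.8, 73.0 and 67.0 at 24 h, and was called at 12 h (log2 0.28, edgeR adjusted p = 0.00627) but not at 24 h (0.23, adjusted p = 0.113). Sgk1, the aldosterone-induced kinase of this pathway, was lower at 12 h by 0.57 (log2 -0.57, edgeR adjusted p = 0.0121). Aqp3 (2.79 to 4.34 CPM), Aqp4 (0.543 to 1.46), Scnn1b (0.496 to 1.73), Nr4a3 (0.688 to 1.86) and Cited1 (2.13 to 4.88) were under the filter and were not tested. Of 22 sodium transport genes 11 changed (5 with both measures), 2 rose and 4 were called higher and 3 called lower at 12 h (median 0.03). Of 14 receptor genes 6 changed (3 with both measures), 3 rose and 1 fell.

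Of 15 NF-kB, cytokine and complement genes 10 changed, 6 with both measures, where 24.0% and 5.54% of all genes did. Of these 15 genes 6 fell and C3 rose, and with both measures 3 fell and C3 rose. Over all genes 2.14% fell and 3.11% rose, and with both measures 0.529% fell and 1.48% rose. Nfkbia, the inhibitor of NF-kB, was at 142 ± 1.92 CPM (SD, n = 3) at 3 h and 111 ± 7.48 at 24 h and fell by 0.46 (edgeR adjusted p = 0.00436), but met no class with both measures (adjusted p = 0.0558 for 24 against 3 h). Cxcl16, a membrane chemokine, fell by 0.42 and Tnfaip3, a ubiquitin-editing inhibitor of NF-kB, by 1.05, and both met the falling class with both measures too. The call of Cxcl16 was lost without 3 h replicate 2 (edgeR adjusted p = 0.111). In vehicle 5 of the 15 were lower at 24 h, against 2.87% of all genes (3.67% were higher). Of 9 xenobiotic enzymes 6 changed, 4 rose (Adh1, Adh7, Akr1c13 and Aldh3b1) and Cyp1b1 fell. With both measures 3 of the 9 changed, Adh1 and Aldh3b1 rose and 0 fell. Akr1c13 was lost in 4 of 12 fits that left out a library (edgeR adjusted p up to 0.247), and Aldh3b1 without 3 h replicate 2 (0.0604). Of 19 interferon genes 5 changed (2 with both measures) and 3 rose (1 with both), where 24.0% of all genes changed. Their median was 0.16 at 24 h. Of 11 osmotic response genes, a list that holds Aqp2, 9 changed (4 with both measures) with 6 lower at 12 h.

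Of 27 junction and keratin genes 9 changed (2 with both measures) and 4 rose (1 with both), among them Cldn8, a tight junction protein of the collecting duct, which rose by 0.73 from 126 to 149 CPM at 3 h to 203 to 222 at 24 h (edgeR adjusted p = 0.00332) but was not called with both measures. Over time 9 of 20 cyclin and p53 genes changed (5 with both measures), 7 of 20 fatty acid genes (0), 8 of 22 endoplasmic reticulum stress genes (1), 8 of 16 chaperones (3), 12 of 22 NRF2 genes (1), 11 of 22 matrix genes (4) and 9 of 25 apical trafficking genes (3). Over all genes the shares were 24.0% and, with both measures, 5.54%. Muc1, an apical mucin, rose by 0.68 (edgeR adjusted p = 0.00226). Without 3 h replicate 2 the calls of Cldn8 (edgeR adjusted p = 0.0614) and Muc1 (0.0516) were lost. Of 50 ribosomal protein genes 7 changed and of 39 nuclear respiratory chain genes 3, none of either list with both measures, and of 13 mitochondrially encoded ones edgeR called 0, with 0 at an unadjusted p under 0.05 and 0 by DESeq2.

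Against vehicle, the course over time differed for 76 of 12107 genes (0.628%), 72 of which were called in the treated cells and 36 of which also differed with both measures, where 40 did in all (0.33%). The change from 3 to 24 h differed for 81 genes (0.669%), 31 above vehicle (0.256%) and 50 below (0.413%), and with both measures for 40, 10 above (0.0826%) and 30 below (0.248%). Among falling genes 30 of 259 differed in course (11.6%) and among rising genes 17 of 377 (4.51%), 19 and 10 of them with both measures. The rule did not use vehicle, but all 12 dDAVP libraries enter both the class and the difference. These shares are therefore raised by selection and are only a description. Besides the genes above, Veph1, Anxa9, Scel and Sult1c2 differed among rising genes, and Cerk, Chp1, Vwa2, Smpd2 and Soat1 among falling ones, all chosen after their values were seen. Veph1 changed by 0.97 under dDAVP and by 0.28 in vehicle from 3 to 24 h (edgeR adjusted p = 0.000396 for the course), and Soat1, which esterifies cholesterol, by -0.70 and -0.06 (adjusted p = 0.000484). Cerk, ceramide kinase, changed by -0.95 and 0.49 (adjusted p = 0.00364), and Cyp1b1 by -0.76 and 0.66 (adjusted p = 0.0285). The courses of these 4 genes also differed from vehicle with both measures, whereas those of Scel (edgeR adjusted p = 0.196) and Sult1c2 (0.0805) were not called then. For most classed genes vehicle moved the same way: 366 of 377 rising and 226 of 259 falling genes had the same sign from 3 to 24 h.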

How the data were processed

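RNA of 24 libraries was measured, and the 12 dDAVP libraries were analysed over time. The authors made estimated counts per Ensembl gene from the reads and deposited them unnormalized; 56.516% of values above 0 hold fractions. The deposited TPM table was not used for tests. Per the submitters' processing notes, Salmon 0.14.10 and GRCm38.p6 were used; its settings, and how transcripts were summed, were not given in the sources used here. Names came from GENCODE M21 for 54346 of 54432 identifiers.

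Counts were rounded and fitted with edgeR 4.0.16 (limma 3.58.1, R 4.3.3): TMM factors 0.968 to 1.02, 12107 genes of at least 5 CPM in a dDAVP group by unscaled totals, 1 mean per time and the centred log2 receptor share (1135 Olfr and 324 Vmn genes), quasi-likelihood F tests, and Benjamini-Hochberg adjustment over all genes tested, which stands behind every adjusted p. Printed CPM use TMM sizes over all 24 libraries. Fold changes are log2 and adjusted for the share. Values against vehicle came from a fit of all 24 libraries with 8 means. The biological coefficient of variation was 0.0723 with the share and 0.0991 without it. The chi-square between replicates was 3.45 to 10.43 per gene, beyond sampling noise. The script was tested on simulated data.

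Genes, 28 lists, markers and tests were chosen with earlier results of these data known. Named genes were the largest changes of each class (12 rising, 12 falling, 8 peaking, 8 trough) without overlap of libraries, a fixed set of 29, and up to 4 members of each list with the smallest p; any other gene was picked after its values were seen. Alternatives were no covariate, RLE, DESeq2 1.42.0, filterByExpr, no filter, a replicate block, all 24 libraries, leaving out each library and, chosen after seeing the data, both library measures. Motif windows on chromosome 18 were left out. Replicate numbers did not pair the libraries. Figures used matplotlib 3.10.9 in Python 3.11.15, and exact permutation used NumPy and SciPy 1.17.1.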

Additional observations from a re-analysis of the deposited data

Results flagged for a closer look

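For 18 named genes the change from 3 to 24 h under dDAVP differed from that under vehicle by edgeR's test of the difference (24 libraries, 3 per group, adjusted p under 0.05); all values here are log2 differences, dDAVP minus vehicle. The change was more positive under dDAVP for Ptger1 (1.57), Adh1 (1.45), C3 (1.31), Krt23 (1.18), Adh7 (1.06), Aqp2 (1.05), Tgm2 (0.92), Rasl11a (0.89), Inmt (0.73), Fos (0.71), Avpr2 (0.68), Cldn8 (0.54) and Muc1 (0.48). It was more negative for Ramp3 (-2.44), Nr4a2 (-1.28), B3gnt7 (-0.80), Sik1 (-0.67) and Akap12 (-0.60). With both library measures in the model 8 of these were not called, by edgeR: Adh1 (adjusted p = 0.308), Adh7 (0.106), Ptger1 (0.596), Rasl11a (0.134), Krt23 (0.125), Sik1 (0.399), Cldn8 (0.276) and Muc1 (0.177).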

How the results depend on the processing

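RLE factors in place of TMM moved no count by over 1.5 times, and the settings named here did. The model with both library measures was chosen after seeing the data. It gave 671 genes changing over time, 314 at 24 h against 3 h, 12 at 6 h against 3 h, 429 at 12 h against 6 h, 179 rising, 64 falling and 16 trough genes, and 40 genes each for the change from 3 to 24 h and the course against vehicle. Without a covariate these were 2389 at 24 h, 21 at 6 h, 3039 at 12 h against 6 h, 931 rising, 1076 falling, 65 trough, 51 and 152. A fit of all 24 libraries gave 1944 at 24 h, 37 at 6 h, 2495 at 12 h against 6 h, 315 at 24 h against 12 h, 959 rising, 847 falling, 116 peaking and 109 trough genes. DESeq2 gave 38 at 6 h, 318 at 24 h against 12 h, 102 peaking and 88 trough genes. With filterByExpr (25130 genes) 443 were called at 24 h and 4 at 6 h, with 209 rising and 15 trough, and with no filter (51186 genes) 94 at 6 h, 264 at 24 h against 12 h, 435 falling and 77 trough. Of 141 single values of named genes, 1 was lost without a covariate and 62 with both measures. With both measures E2f1 at 12 h against 3 h turned from -1.03 to 0.304. E2f1 is among the genes that define the second measure, so that fit adjusts the gene partly for its own level. It therefore cannot decide the direction of E2f1, and the cause of the turn was not tested.

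Replicate numbers did not pair the libraries (correlations of same-numbered deviations from -0.332 to 0.426). A replicate block gave 209 genes at 24 h against 3 h, 2 at 6 h, 586 at 12 h against 6 h, 51 at 24 h against 12 h, 122 rising, 80 falling, 30 peaking and 6 trough genes, with 2512 over time.

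Leaving out a library gave 2228 to 2953 genes over time. At 24 h against 3 h it gave 112 (without 3 h replicate 2) to 822, with 407 without 3 h replicate 3, 439 without 6 h replicate 2 and 297 without 24 h replicate 3. It gave 0 to 2 at 6 h against 3 h, and 184 (6 h replicate 3) to 1651 at 12 h against 6 h, with 792 without 3 h replicate 1. At 24 h against 12 h it gave 73 (24 h replicate 3) to 301 (24 h replicate 2), and 92, 88, 86, 78 and 87 without 3 h replicates 1 and 2, 6 h replicates 2 and 3 and 12 h replicate 3. Rising genes were 73 (3 h replicate 2) to 499, with 207 without 3 h replicate 3 and 186 without 24 h replicate 3. Falling genes were 31 (3 h replicate 2) to 487 (24 h replicate 1), with 145 without 6 h replicate 2 and 97 without 24 h replicate 3. Peaking genes were 40 (24 h replicate 3) to 80. Trough genes were 11 (6 h replicate 3) to 80 (24 h replicate 2), and 12 to 19 without any library of 3 h, 6 h replicate 2, 12 h replicates 1 and 3 or 24 h replicates 1 and 3. The change from 3 to 24 h against vehicle was called for 38 (dDAVP 3 h replicate 1) to 376 (dDAVP 24 h replicate 1), and for 40 to 53 without vehicle 3 h replicate 2, dDAVP 3 h replicate 2, any vehicle library of 24 h or dDAVP 24 h replicate 3. The course against vehicle was called for 43 (dDAVP 6 h replicate 3) to 422 (dDAVP 24 h replicate 1), for 44 to 50 without dDAVP 3 h replicates 1 and 2, vehicle 12 h replicate 1 or vehicle 24 h replicate 3, and for 120 to 230 without vehicle 3 h replicates 1 and 3, either treatment's 6 h replicate 1, vehicle 12 h replicate 3 or dDAVP 24 h replicate 3. The receptor share's permutation p ran from 0.0123 to 0.0878.

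Depth limits low genes: a level under 5 CPM in all times was not tested.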
